A study of Mus musculus with 96 samples.

Results

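Transcripts of 10 genes around the Aurora kinases were followed in single cells of the mouse lung line C10. The genes were taken by name from the 40202 genes counted. Aurka, Tpx2 and Hmmr stand for the spindle kinase Aurora A and its partners. Aurkb, Incenp, Birc5 and Cdca8 encode the chromosomal passenger complex, and Prc1, Ect2 and Anln act at the central spindle and the cleavage furrow.

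The 96 libraries each came from 1 C10 cell, and the labels call the line alveolar type II epithelium. There were 48 cells with no treatment, here the control, and 48 cells given RO-3306, which is marketed for blocking the mitotic kinase CDK1, at the labelled 10 nM for 36 h. No vehicle is named for the control, all cells are of 1 line, and no label names a culture or passage. Each treatment was therefore 1 sample, no test was run, and the intervals given are exact 95% intervals that cover the counting of reads or of the cells sampled, not differences between cultures.

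Aurora A is a kinase of the spindle poles. Tpx2 activates it and places it on spindle microtubules, and Hmmr is a microtubule-binding protein that helps to position Tpx2. Aurora B, the product of Aurkb, works inside the passenger complex, in which Incenp is the scaffold and Birc5 (survivin) and Cdca8 (borealin) target the kinase to centromeres and later to the central spindle. Prc1 bundles antiparallel microtubules of the central spindle, Ect2 is the exchange factor that activates RhoA for furrowing, and Anln (anillin) cross-links the contractile ring. In cycling cells the transcripts of such genes usually accumulate in G2 and mitosis, and genes of this class often carry a CHR element (cell cycle genes homology region) with CCAAT boxes upstream of it.

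Promoter windows are shown because members that share a cell cycle programme often share these short motifs. The sequences are from RefSeq on GRCm38.p6, an older build than the GRCm39 annotation of the counts, and promoters were matched by symbol for 7 members, with 9 annotated starts. Aurkb, Incenp and Tpx2 had no entry. Each window below runs 5′ to 3′ from 60 bases before to 50 bases after an annotated start, and capitals mark TTTGAA, the CHR letters, and CCAAT, either of them on either strand (TTCAAA and ATTGG on the minus strand).
Aurka, chr2:172370521-172370630, strand minus: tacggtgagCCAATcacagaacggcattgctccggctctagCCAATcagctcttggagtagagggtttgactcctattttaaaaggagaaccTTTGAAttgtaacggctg
Cdca8, chr4:124936868-124936977, strand minus: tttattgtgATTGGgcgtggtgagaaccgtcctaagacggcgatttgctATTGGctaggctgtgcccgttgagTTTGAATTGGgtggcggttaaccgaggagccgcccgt
Ect2, chr3:27153829-27153938, strand minus: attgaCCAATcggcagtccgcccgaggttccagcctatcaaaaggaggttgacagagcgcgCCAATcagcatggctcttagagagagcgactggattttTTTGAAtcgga
Birc5, chr11:117849177-117849286, strand plus: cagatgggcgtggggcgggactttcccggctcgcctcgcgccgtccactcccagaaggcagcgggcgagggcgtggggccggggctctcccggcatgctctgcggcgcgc

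Counted with 1 as the first base after the start, TTTGAA began at 33 in Aurka, 14 in Cdca8 and 9 in Hmmr. It began at -5 in Prc1, at both -114 and 40 in Ect2 and at 29 in Anln, which also had it on the minus strand from 22. In the window of Cdca8 it overlaps an ATTGG, so the capitals run together there. Over 250 bases before and 50 bases after the start, TTTGAA was at 8 of the 9 member starts (6 of 7 genes) and CCAAT at 7 (5 genes), beside 17.9% and 37.4% of the 32851 starts in the table. Birc5 was the gene without TTTGAA, and CCAAT was in neither Birc5 nor Anln. The related letters TTTAAA were at 2 of the 9 starts, in Aurka and Birc5, and at 13.2% of all starts. A match describes letters and is no measure of binding.

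Cells with at least 50000 counts and 1000 genes were kept, 29 of 48 in control and 37 of 48 in RO-3306, with total counts from 59979 to 6457215 (median 1753427) and from 295005 to 5321880 (median 2234309). A letter in each title, A to D, splits the kept cells into sets of 10, 8, 6 and 5 control and 10, 10, 11 and 6 RO-3306 cells. The letters have no stated meaning, so the sets serve to show whether a sign recurs and are not replicates. At an equal depth of 639000 counts, reached by 25 control and 34 RO-3306 cells, the median cell had 4576 genes in control and 5958 in RO-3306. Of 10 alveolar type II markers 5, Sftpa1, Sftpc, Sftpd, Slc34a2 and Napsa, had no count in any kept cell. The 10 together made 23.5 (control) and 27.7 (RO-3306) CPM, which are counts divided by the total and scaled to 1000000. The largest parts were Lpcat1 (13.5 and 18.7) and Abca3 (9.38 and 5.21). A count of any of the 10 was seen in 20 of the 29 control cells against 25 of the 37 RO-3306 cells. The 6 epithelial markers summed to 1.78 and 0.978 CPM. The 6 mesenchymal markers summed to 5579 CPM in control (1329 to 11354 per cell), and in RO-3306 to 2523 CPM (1263 to 13886). The 6 macrophage markers summed to 31.3 CPM (0 to 253 per cell) and 335.7 CPM (0 to 860), of which Cd68 made 0.0757 and 319.8 CPM and Lyz2 29.5 and 15.8 CPM, while Adgre1, Csf1r and Ptprc were each under 2 CPM in both groups. The part of these differences and of genes per cell in the results on Aurora genes was not tested.

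RO-3306 cells more often had a count of the kinases Aurka and Aurkb and of their partners Cdca8 and Tpx2. At equal depth, 4 of the 9 members with at least 5 CPM (a mean over the groups) had a share of cells at least 20 percentage points higher in RO-3306, and 0 of 9 had one at least 20 points lower. The same rules held for 27.4% and 1.98% of the 9374 genes of at least 5 CPM. Among the 4175 genes within the members' range of mean CPM, 34.9% were at least 20 points higher, so the members' count was not far from that of genes of like level. The median difference over the 9 members was 18.2 points, beside 13.1 points over genes of like level. Aurka had the largest difference of the members, 41.3 points, and 5.34% of the genes of like level had one as large. Tpx2 had the smallest difference of the 4 higher members, 21.3 points, and with another random draw of counts it was 17.3 points.

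**Figure D1:**
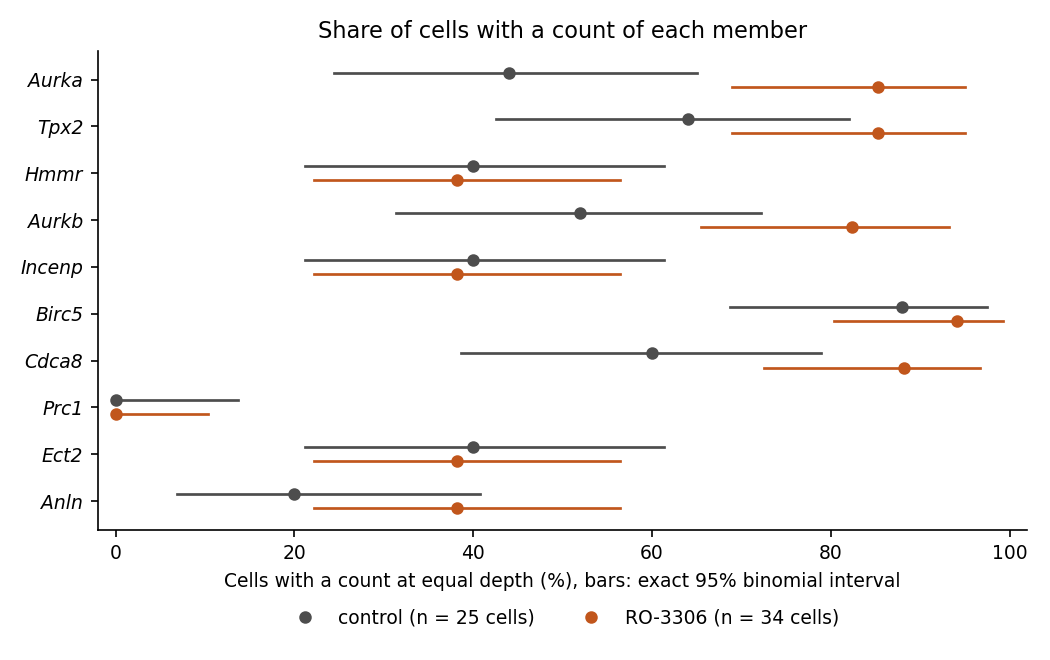
Share of cells with at least 1 count of each gene at an equal depth of 639000 counts (x axis, percent), for 25 control and 34 RO-3306 cells, with exact 95% binomial intervals. Aurka, Aurkb, Cdca8 and Tpx2 lie to the right in RO-3306, Incenp, Hmmr and Ect2 are at 40% in control and 38.2% in RO-3306, and Prc1 is at 0 in both.

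Summed expression did not follow the shares. The ratio used here is log2 of RO-3306 over control CPM, from counts summed over kept cells, with 1 CPM added to each. Of the 9 members, 0 were at least 2-fold higher and 2, Tpx2 and Ect2, were at least 2-fold lower. By the same rules 12.2% and 24.2% of the 9374 genes were higher and lower, so the members were close to the background. Neither of the 2 had the same sign in all 4 lettered sets, a rule that 7.23% (higher) and 6.43% (lower) of all genes met with the 2-fold difference. With no minimum on size, Birc5 was higher in all 4 sets and Incenp lower in all 4, 1 member each, beside 13.1% and 10.3% of all genes.

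The 9 members had a median log2 ratio of -0.56, 3 above and 6 below 0, beside -0.22 over all genes and -0.16 over genes of like level. Their sum was 1610 CPM in control against 1502 CPM in RO-3306, which is -0.10 on the log2 scale. Both summaries rested on set B: without it, the median was 0.31 and the ratio of the sum 0.36. Scaling by TMM or DESeq2 factors raised genes far above 1 CPM by 0.21 or 0.24 and turned the ratio of the sum to 0.11 or 0.13, and the median of all genes then stood at -0.02 or 0.01. RNA per cell was not measured, so a CPM value is a share of the counts of a cell or group.

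**Figure D2:**
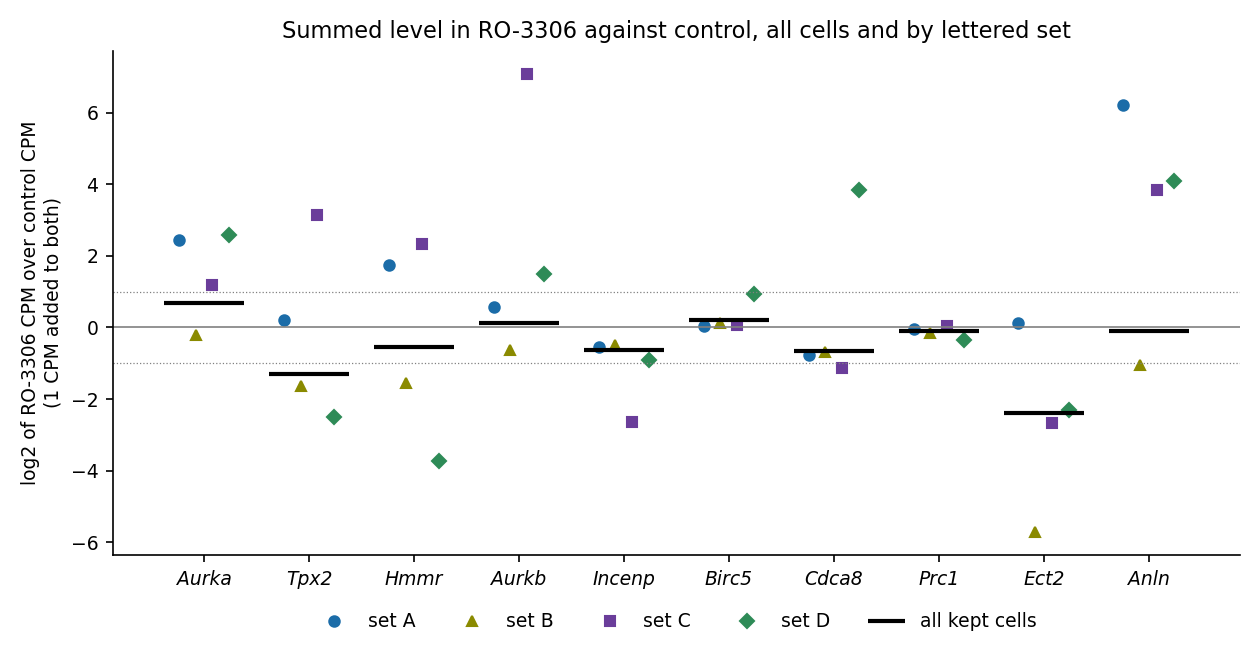
Log2 ratio of RO-3306 over control (y axis, 1 CPM added to both) for each gene (x axis), over all kept cells (black bar) and in each lettered set (points), with dotted lines at a 2-fold difference. Tpx2 and Ect2 lie below -1 over all cells, Birc5 is above 0 and Incenp below 0 in all 4 sets, and the sets of the other members fall on both sides of 0. For Aurkb and Anln in set C the control is at 0, so the plotted point depends on the added 1 CPM and is no fold.

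Aurka, the Aurora A kinase itself, was found in 11 of 25 control cells (44%, 24.4% to 65.1%) against 29 of 34 RO-3306 cells (85.3%, 68.9% to 95.05%) at equal depth. Its level per cell ran from 0 to 505 CPM in control, with a median of 0, and from 0 to 771 CPM in RO-3306, with a median of 149.9. The ranges overlapped, and cells without a count were in both groups. By set, Aurka was in 2 of 9, 7 of 8, 1 of 5 and 1 of 3 control cells and in 7 of 8, 8 of 9, 9 of 11 and 5 of 6 RO-3306 cells. The gap was therefore in sets A, C and D, while in set B nearly every cell of both groups had the transcript. Summed Aurka was 146.6 CPM (143.7 to 149.6) in control against 237.8 CPM (234.7 to 241) in RO-3306, for a log2 ratio of 0.69. The sets gave 2.45, -0.20, 1.17 and 2.58 in the order A to D. Among cells that had a count, the median level was 199 CPM in control against 180.0 CPM in RO-3306, so that the groups differed in how many cells had Aurka by more than in how much those cells had. The span of Aurka, chr2:172198110-172212820 on the minus strand of GRCm39, shares 256 of its 14711 nt with Cstf1, and by the default of the counting tool reads over both genes were left out.

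Tpx2, the activator of Aurora A, was in more RO-3306 cells but at a lower level. It had a count in 16 of 25 control cells (64%, 42.5% to 82.0%) against 29 of 34 RO-3306 cells (85.3%, 68.9% to 95.05%). The difference of 21.3 points was above 0 in all 9 alternatives, from 5.77 points without set A to 39.1 points without set B. The stricter filter and the mitochondrial limit are among the 9, kept the same cells and could not move it. In set B Tpx2 was in the larger share of control cells, 7 of 8 against 6 of 9 in RO-3306. Per cell it ran from 0 to 879 CPM in control (median 11.98) and from 0 to 436 CPM in RO-3306 (median 47.4). The median of the control cells was thus the lower one while their highest cells were above all RO-3306 cells. Cells with a count had a median of 137.7 CPM in control against 73.6 CPM in RO-3306, and the sums were 201.7 CPM (198.3 to 205.1) and 81.9 CPM (80.1 to 83.7). The log2 ratio of the sums was -1.29, with 0.22, -1.65, 3.15 and -2.50 in sets A to D. The ratio was -0.49 when cells weighed equally, -0.67 when cells were thinned before summing and -0.82 without set B. It was -0.74 when the median of genes with spans of like length was subtracted. None of these 4 values is past 2-fold.

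Hmmr, the microtubule-binding partner of Tpx2, had a count in 10 of 25 control cells (40%) against 13 of 34 RO-3306 cells (38.2%). Its sum was 112.9 CPM in control against 76.5 CPM in RO-3306, for a log2 ratio of -0.56, with 1.74, -1.54, 2.32 and -3.74 in sets A to D. Most cells of both groups had none. The highest cells reached 900 CPM in control against 1583 CPM in RO-3306, and the cells with a count had medians of 219.1 and 82.9 CPM. Without set B the ratio of Hmmr was 0.82.

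Within the passenger complex, the kinase Aurkb and the targeting subunit Cdca8 were in more RO-3306 cells, Birc5 was in nearly all cells of both groups, and the scaffold Incenp was in a minority of the cells of either group. Aurkb had a count in 13 of 25 control cells (52%, 31.3% to 72.2%) against 28 of 34 RO-3306 cells (82.4%, 65.5% to 93.2%). Its level ran from 0 to 823 CPM in control (median 0) and from 0 to 494 CPM in RO-3306 (median 116). The summed levels were close, 163.6 CPM (160.5 to 166.7) and 178.1 CPM (175.4 to 180.9), with a log2 ratio of 0.12 that lies below the shift between scalings. In set C no control cell had a count of Aurkb, while the RO-3306 cells summed to 134.8 CPM. Sets A, B and D gave ratios of 0.58, -0.62 and 1.49. The ratio was -0.12 without set A and -0.14 without set D, and 1.14 without set B.

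Incenp, the scaffold that holds the kinase, was in 10 of 25 control cells (40%, 21.1% to 61.3%) against 13 of 34 RO-3306 cells (38.2%, 22.2% to 56.4%). Its summed level was 46.9 CPM (45.3 to 48.6) in control against 29.8 CPM (28.7 to 30.9) in RO-3306, for a log2 ratio of -0.64. The ratios in sets A to D were -0.54, -0.48, -2.64 and -0.91, all below 0. The medians per cell were 0 in both groups, with highest cells at 423 and 217 CPM, so the levels overlapped. Without set C the ratio was -0.20, and 27.4% of the genes of like level had a ratio as low as -0.64.

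Birc5 was the most abundant member, with 38.8% of all member counts in control and 47.9% in RO-3306. It had a count in 22 of 25 control cells (88%) against 32 of 34 RO-3306 cells (94.1%). Per cell it ran from 0 to 1271 CPM (median 648) in control and from 0 to 1247 CPM (median 724) in RO-3306, 2 ranges that nearly coincide. The sums were 624 CPM (618.1 to 630.1) and 720 CPM (714.1 to 725.1). The log2 ratio was 0.21, with 0.05, 0.11, 0.08 and 0.93 in sets A to D, and 3 of these 4 values are smaller than the 0.21 by which TMM scaling raised a gene of such a level. Fractional counts, which come from reads placed at several sites, occurred in 40.9% of the libraries with Birc5. They occurred in 47.4% of those with Tpx2, 46.9% with Hmmr, 39.1% with Aurka and 35.6% with Aurkb, and in 25% or fewer for each other member. A share of the counts of these genes may belong to near-identical copies.

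Cdca8, which binds Birc5 and Incenp in the complex, was in 15 of 25 control cells (60%, 38.7% to 78.9%) against 30 of 34 RO-3306 cells (88.2%, 72.5% to 96.7%). Its level ran from 0 to 934 CPM in control (median 9.86) and from 0 to 584 CPM in RO-3306 (median 74.8). As for Tpx2, the control cells had the lower median and the higher maximum. Cells with a count had medians of 304 and 104.9 CPM, and the sums were 198.6 CPM (195.2 to 202.0) and 126.6 CPM (124.4 to 128.9). The log2 ratio was -0.65, with -0.77, -0.70 and -1.14 in sets A, B and C and 3.83 in set D, where the control cells summed to 8.35 CPM. The ratio of Cdca8 stayed between -0.83 and -0.41 over the 15 alternatives computed.

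**Figure D3:**
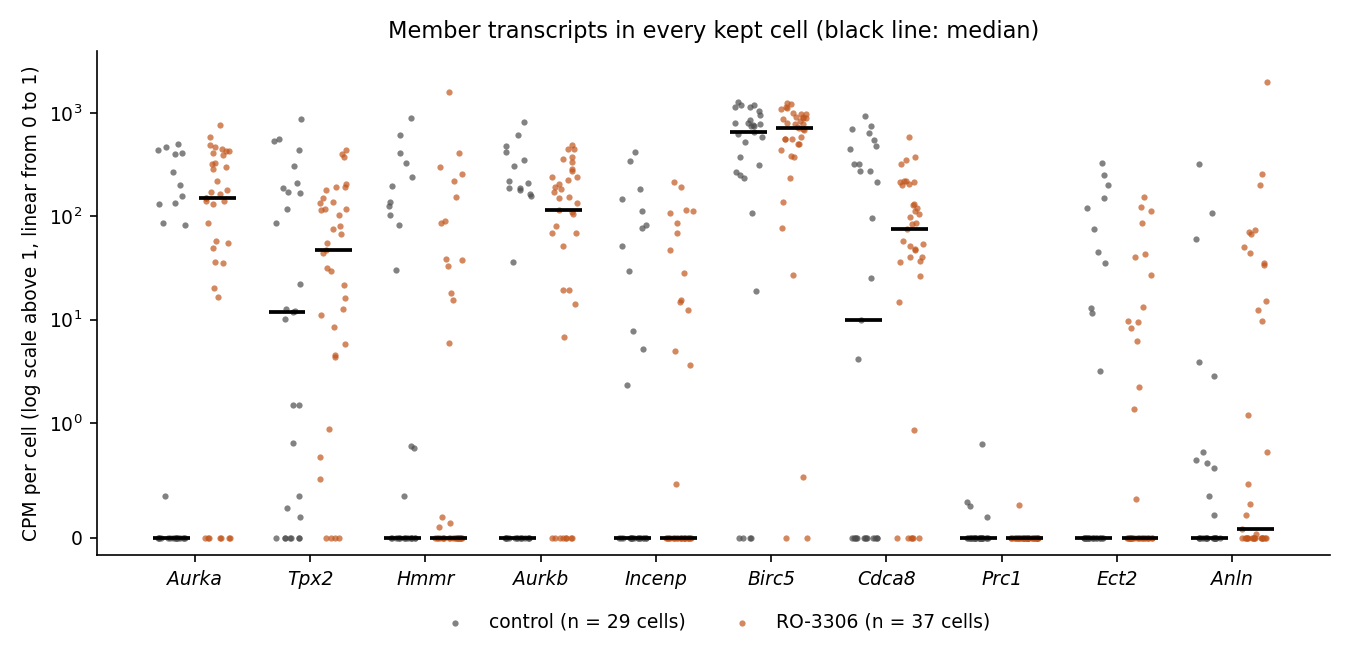
Level of each gene in every kept cell (y axis, CPM, a log scale above 1 and linear from 0 to 1), 29 control and 37 RO-3306 cells, with the group median as a bar. The 2 groups overlap for every gene, many control cells lie at 0 for Aurka, Aurkb and Cdca8, and the highest Anln cell is an RO-3306 cell at 2003 CPM.

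Of the 9 members, 8 had a lower median level in RO-3306 than in control among the cells with a count, and Birc5 had a higher one, at a log2 ratio of 0.05. The largest such differences were those of Ect2 (-1.58), Cdca8 (-1.53), Hmmr (-1.40) and Tpx2 (-0.90). The median over the members was -0.65, beside -0.40 over the 7410 genes with a count in at least 5 cells of each group, of which 66.5% were lower.

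Among the genes of the central spindle and furrow, Ect2 had the largest difference in summed level. Its sum was 74.1 CPM (72.0 to 76.2) in control against 13.4 CPM (12.6 to 14.1) in RO-3306, for a log2 ratio of -2.38, and 1.63% of the genes of like level were as low. The shares of cells did not show it, at 10 of 25 (40%) in control and 13 of 34 (38.2%) in RO-3306. Cells with a count had medians of 61.0 and 20.3 CPM, and the highest cells were at 331 and 153 CPM, so the ranges overlapped. In sets A to D the ratio was 0.13, -5.72, -2.66 and -2.29. The ratio of Ect2 was below -1 under each of the 15 alternatives, from -3.99 without set A to -1.26 when cells weighed equally. The control cell B4 held 33.4% of the control counts, and without it and the top RO-3306 cell the ratio was -2.45.

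Anln showed how 1 cell can set a summed value. It was in 5 of 25 control cells (20%, 6.83% to 40.7%) against 13 of 34 RO-3306 cells (38.2%, 22.2% to 56.4%), with summed levels of 41.04 CPM and 38.1 CPM and a log2 ratio of -0.11. Control cell B4, at 319 CPM, held 76.0% of the control counts of Anln. Without the cell with most counts in each group the ratio was 1.28, with equal weight for cells it was 2.12, and without set B it was 4.91. The RO-3306 cell A11, at 2003 CPM of Anln, was the highest of all kept cells, yet it had no count of Aurka, Aurkb, Incenp, Birc5, Cdca8, Hmmr or Prc1. A11 was too shallow for the shares at equal depth. It stayed in for each of the ratios 1.28, 2.12 and 4.91, since the RO-3306 cell with most Anln counts was B4. With equal weights the mean per cell was 17.2 CPM in control against 77.7 CPM in RO-3306. A11 had a large part in the latter, so the 2.12 leaned on 1 cell too. In set A the summed level of Anln was 0.170 CPM in control against 85.9 CPM in RO-3306, and in set B 104.7 and 50.2 CPM. In set C no control cell had a count against 13.4 CPM in RO-3306, and in set D the values were 0.337 and 21.8 CPM.

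Prc1 gave almost no counts. There were 6 counts in 4 control cells and 1 count in 1 RO-3306 cell, and at equal depth 0 of 25 and 0 of 34 cells, which allows shares of cells with a count up to 12% and 8.82%, taken as 3 cells of the total (exact upper limits 13.7% and 10.3%). In the annotation of the counts its span, chr7:79944024-79966007 on the plus strand, shares all but 315 of its 21984 nt with Rccd1. Reads over 2 gene spans were left out by the default of the counting tool, so the level of Prc1 cannot be read from these files and the gene takes no part in the counts of 9 members.

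Levels can be set side by side per kilobase of mRNA, on the scale of summed CPM per kb. In control the order was Birc5 at 187, Cdca8 at 122, Aurkb at 83.9, Aurka at 77.0, Tpx2 at 46.2, Hmmr at 29.01, Ect2 at 18.1, Incenp at 14.5 and Anln at 8.91. In RO-3306 it was Birc5 at 216, Aurka at 125, Aurkb at 91.3, Cdca8 at 77.9, Hmmr at 19.6, Tpx2 at 18.8, Incenp at 9.20, Anln at 8.27 and Ect2 at 3.27. Birc5 led in both groups, and the kinase transcripts stood above their scaffold and activator in both. Incenp, the subunit that Aurora B needs for activity, stood at the low end. Reads of introns are in these counts, and neighbours in the order such as Aurkb and Aurka in control overlap widely between cells. The length is that of the longest protein-coding transcript, not of the counted span, and the order depends on this choice.

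RO-3306 cells had a count of more members per cell. At equal depth the median cell had a count of 4 members in control (0 to 9) and 6 in RO-3306 (1 to 9). At least 5 members were found in 12 of 25 control cells (48%, 27.8% to 68.7%) against 27 of 34 RO-3306 cells (79.4%, 62.1% to 91.3%). By set these were 4 of 9, 6 of 8, 1 of 5 and 1 of 3 control cells, and 7 of 8, 6 of 9, 9 of 11 and 5 of 6 RO-3306 cells, so that set B had the opposite order. Cells with at least 8 members were 3 (12%) and 8 (23.5%), and cells with at most 2 were 6 and 3. Genes per cell moved with the group too, at the medians of 4576 and 5958 given above, and their part in the number of members found was not tested. Across cells at equal depth the summed level of the members had a Spearman rho with genes per cell of 0.37 in control and -0.08 in RO-3306.

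**Figure D4:**
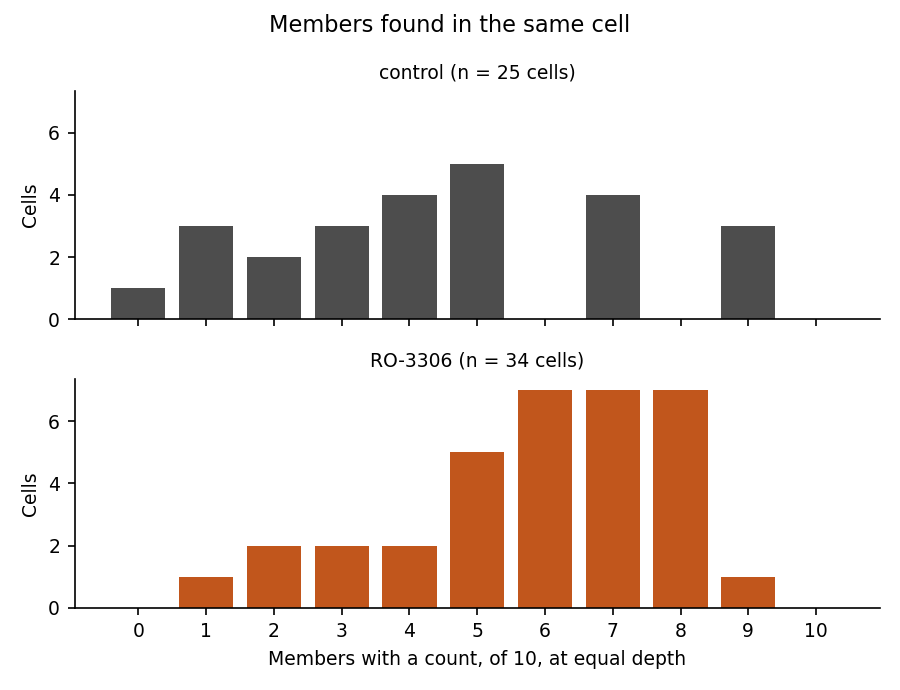
Number of the 10 genes with a count per cell at equal depth (x axis) against the number of cells (y axis), for 25 control and 34 RO-3306 cells. Control cells spread from 0 to 9 genes around a median of 4, and RO-3306 cells gather between 5 and 8 around a median of 6.

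The 2 kinases were found together in 8 of 25 control and 27 of 34 RO-3306 cells. Aurka without Aurkb was seen in 3 and 2 cells, Aurkb without Aurka in 5 and 1, and neither in 9 and 4. Aurka and its activator Tpx2 were both found in 10 control and 26 RO-3306 cells. Few cells had Aurka without Tpx2, 1 in control and 3 in RO-3306. All 4 passenger transcripts were found in 7 control cells (28%, 12.1% to 49.4%) and 13 RO-3306 cells (38.2%, 22.2% to 56.4%), and at least 3 of them in 13 and 26. Incenp was the one most often missing: Aurkb was found without Incenp in 5 control and 15 RO-3306 cells, and Incenp without Aurkb in 2 and 0. Birc5 alone of the 4 was found in 5 control cells and 1 RO-3306 cell. Such joint counts follow in part from the share of cells with each gene alone. What those shares would give without any link between genes was not computed.

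Most pairs of members had a positive correlation between cells of a group. Over the 36 pairs of the 9 members, Spearman's rho of log2 levels at equal depth had a median of 0.35 in 25 control cells, with 35 pairs above 0, and of 0.24 in 34 RO-3306 cells, with 33 above 0. In control the highest pairs were Aurka with Hmmr (0.63), Tpx2 with Ect2 (0.62) and Aurka with Tpx2 (0.59). In RO-3306 they were Aurka with Aurkb (0.56) and Aurkb with Incenp (0.54), and Aurka with Hmmr was at 0.15. Against the sum of the other members, Aurka had a rho of 0.67 in control and 0.38 in RO-3306, Tpx2 0.56 and 0.18, Hmmr 0.56 and 0.13, and Aurkb 0.32 and 0.48. These are descriptions without a test, and the cells share the library chemistry, the thinned depth and many zero counts. Pairs of other genes were not computed, so no background stands beside these values. In control the summed members had a rho of 0.37 with genes per cell, and the part of this in the pairs was not tested.

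**Figure D5:**
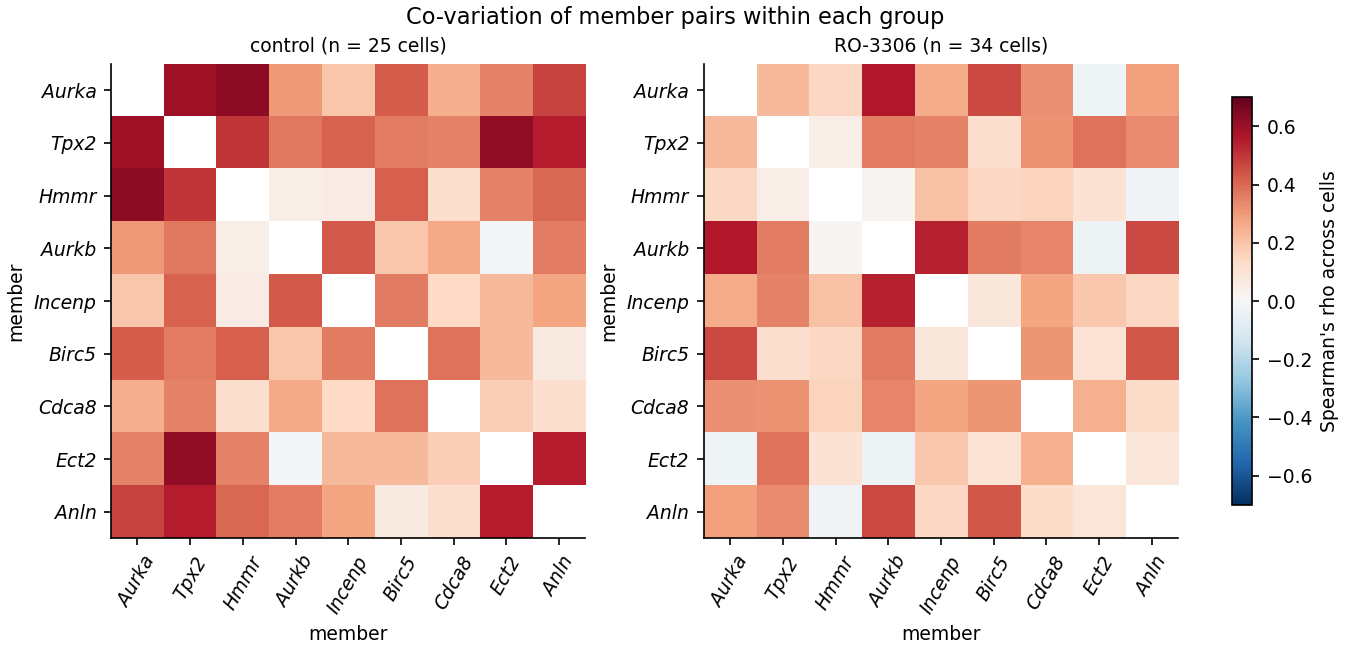
Spearman's rho (colour) between the levels of each pair of genes (x and y axes) over cells at equal depth, in 25 control cells and 34 RO-3306 cells. In control the pairs run from -0.01 to 0.63 with the highest among Aurka, Hmmr, Tpx2 and Ect2, and in RO-3306 they run from -0.04 to 0.56 with the highest at Aurka and Aurkb.

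Genes outside the list whose levels went with the summed members were ranked by the mean rho of the groups, among 5355 genes with at least 20 CPM and a count in at least 25% of cells. Racgap1, part of the centralspindlin complex that binds Ect2, came first with 0.81 in control and 0.61 in RO-3306. It was followed by Sgo1, Ube2c, Pttg1, Cdc20, Arl6ip1, Troap, Topbp1, Pimreg and Ccnb1. The last of these, Ccnb1, which encodes cyclin B1, had 0.49 and 0.58. The median over the 5355 genes was 0.09 in control and -0.02 in RO-3306.

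The wider pathway was described with 26 further genes, of which 23 had at least 5 CPM. Of these, 4 had a ratio above 0 and 19 below, 0 were at least 2-fold higher and 8 at least 2-fold lower, and 3 of the 8 were lower in all 4 sets. Of all 9374 genes, 5526 were below 0, 24.2% were at least 2-fold lower and 6.43% were so with all 4 sets lower. The median of the 23 was -0.75, beside -0.22 for all genes. The 8 lower genes lay on the Aurora A side (Plk1, Nedd1, Kif11 and Ajuba), the passenger side (Kif2c and Rcc2) and the central spindle (Kif23 and Cit). Those lower in all 4 sets were Ajuba, an activator of Aurora A, at -1.89, Rcc2, a passenger-associated protein, at -1.54, and Cit, the citron kinase of the midbody, at -1.995. Kif23, the kinesin of centralspindlin, was at -2.06, and Kif2c, a microtubule depolymerase that Aurora B regulates, at -1.92. Plk1, the kinase activated by Aurora A, was at -1.26 (108.6 and 44.8 CPM), the spindle motor Kif11 at -1.36 and the gamma-tubulin targeting factor Nedd1 at -1.61.

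The other pathway genes at 50 CPM or more differed less than 2-fold. Racgap1 was at 416.6 CPM in control against 248.1 CPM in RO-3306, a ratio of -0.75 with all 4 sets below 0. Septin7 was at -0.44, Rhoa, the GTPase that Ect2 activates, at -0.50, Cep55, a midbody protein, at -0.66, Tacc3, an Aurora A substrate, at -0.26 and Fzr1, an activator of the anaphase-promoting complex, at -0.57. On the passenger side Bub1, whose histone mark recruits shugoshin, was at 0.52 and the shugoshin gene Sgo1 at 0.54, both above 0. In share of cells, 6 of the 23, Tacc3, Fzr1, Bub1, Sgo1, Sgo2a and Kif20a, were at least 20 points higher in RO-3306 and 1, Kif14, was at least 20 points lower. The rules held for 27.4% and 1.98% of all genes, so the count of higher genes is near the background. Bub1 went from 9 of 25 to 25 of 34 cells and Sgo1 from 13 of 25 to 26 of 34. On the central spindle side all 8 genes of at least 5 CPM had ratios below 0, beside 5526 of the 9374 genes. Ect2 and Anln were below 0 too, though the ratio of Anln turned with the weighting of cells and with either scaling. Haspin, the kinase whose histone mark recruits the passenger complex, had no count in any kept cell, and its span lies within that of Itgae. Aurkc, the third Aurora kinase, had 1.5 counts in 1 control cell and 0 in RO-3306.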

How the data were processed

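Single-cell RNA-seq of 96 C10 libraries was analysed. Each deposited file lists expected counts, made by the authors with featureCounts 2.0.3 over whole gene spans of the GRCm39 RefSeq annotation, introns included, with reads placed at several sites split into fractions, per the file headers. No strand option is recorded. STAR is named in the submitters' processing notes, and its version and settings are not given in the sources used here. Without molecular identifiers, PCR copies are counted too, and intervals cover counting error only.

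Groups came from the treatment labels. The members and lists were chosen with earlier results of these data known. All 10 members are named, and pathway genes where they had a mean of at least 50 CPM or a 2-fold difference. Counts were summed over kept cells and scaled to a total of 1000000 (CPM), with a pseudocount of 1 CPM in ratios, which understates the change of low genes. Counts were rounded for thinning (to the 10th percentile of totals, 639000, which left out 4 control and 3 RO-3306 cells) and for intervals. Intervals were exact Poisson (sums) and Clopper-Pearson (shares) at 95%, and a share of 0 allows 3 cells of the total. Doublets were not called, because cells were sorted singly, and no 2 kept libraries were identical. A whole count was one within 1e-06 of a whole number. mRNA lengths were those of the longest protein-coding transcript, matched by symbol to GENCODE transcripts of an older assembly, and no coordinates were taken from it. Alternatives covered cell filters, weighting, thinning, scaling, length, pseudocount, expression minimum, detection rule and each lettered set. Python 3.11.15, numpy 2.4.6, pandas 2.3.3, scipy 1.17.1 and matplotlib 3.10.9 were used, and in R 4.3.3 DESeq2 1.42.0 and edgeR 4.0.16 (TMM) gave scaling factors only. Log2 ratios and the thinning of counts were checked on simulated data, and the shares of cells were not. All simulated cells of a group had the same expression profile, so the check does not cover the weight of single cells in a ratio.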

Additional observations from a re-analysis of the deposited data

How the results depend on the processing

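The 25 results were recomputed 308 times. In 187 cases the value stayed within its counting interval (or, for a count, within 1.5 times), and in 121 it did not. The list median of -0.56 was -0.31 with cells weighted equally, -0.38 with thinned cells, -0.35 with TMM, -0.32 with DESeq2, -0.26 after the length step, -0.51 with a pseudocount of 10 CPM, -0.33 with no expression minimum, -0.22 over genes of at least 50 CPM, and -0.84, 0.31, -0.20 and -0.19 without sets A, B, C and D. The log2 ratio of the sum, -0.10, was -0.11 with no cell filter, 0.0059 with equal weights, -0.025 thinned, 0.11 with TMM, 0.13 with DESeq2, -0.047 after the length step, and -0.34, 0.36 and -0.17 without sets A, B and D. Members at least 2-fold higher, 0 in the report, were 1 with equal weights (Anln, with a large part from RO-3306 cell A11) and 3 without set B. Those at least 2-fold lower, 2 in the report, were 1 with equal weights, thinned cells, the length step or no set B, 3 without set C or without set D, and 4 without set A. An alternative chosen after seeing the data left out the cell with most counts of the member in each group. It gave a median of -0.41 and 1 member at least 2-fold higher. The difference of 31.4 points in cells with at least 5 members was 11.5 points for at least 8 members (12% and 23.5%) and from 23.3 to 48.7 points under the other alternatives. The causes of these moves were not tested. The stricter filter and the mitochondrial limit of 20% left the same cells at equal depth and could not move a share. The shares under these settings are among the 187 cases and are no check. No paired analysis was possible because the results come from no test and the shared title numbers carry no stated pairing. With 25 and 34 cells the intervals on shares are wide, which limits what differences the cells can show.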

Other observations

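Libraries below the minimum of 50000 counts and 1000 genes also held member counts. The 19 control libraries left out had 341166 counts in all, of which 261 fell on members (765 CPM, 675 to 864). Of these, 213 were in library B3, which had 47767 counts over 503 genes, and 216 of the 261 were of Anln. The 11 RO-3306 libraries left out had 1162603 counts, of which 208 fell on members (179 CPM, 155 to 205). Library D10, with 63235 counts over 743 genes, held 172 of them, and 190 of the 208 were of Birc5.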
